A study of Danio rerio with 12 samples.

Results

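Embryonic globins and alas2 were followed through 12 pools of whole zebrafish embryos (Danio rerio). The globins were the rows of the expression table whose symbol begins with hbae (embryonic alpha chains) or hbbe (embryonic beta chains), and the erythroid heme synthesis gene alas2 was added to them. The rule found 6 of 14134 genes: hbae1, hbae3, hbbe1.1, hbbe2, hbbe3 and alas2. Healthy embryos carrying GFP were freed from the chorion at 23 hours after fertilization and placed in DMSO (control), in 50 µM empagliflozin or in 50 µM canagliflozin, and RNA was taken at 27 hours. Each group had 4 pools of 5 embryos. All groups thus share the GFP label, whose line and promoter the labels do not name, and the labels give neither clutch nor day. The p-values below set differences between groups against the spread between pools, part of which may be technical. They may not cover variation between clutches or days. Both compounds are C-glucoside inhibitors of the sodium-glucose cotransporter SGLT2; canagliflozin carries a thiophene ring with a fluorophenyl group, and empagliflozin a chlorine and a tetrahydrofuranyl ether.

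Hemoglobin is a tetramer of alpha and beta chains, each holding a heme, and the zebrafish embryo builds it in primitive red cells from embryonic chains that adult chains later replace. alas2 encodes the erythroid form of 5-aminolevulinate synthase, which starts heme synthesis in mitochondria and sets its rate in red cells; fish that lack it have pale, hypochromic blood. Heme and globin are made in step, so the alpha genes, the beta genes and the enzymes of heme synthesis are described in turn.

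Libraries held 16149682 to 27842375 reads over the 14134 genes. Values are TMM-normalized CPM, in which 1 read was worth 0.0363 to 0.0621 CPM. The members lay far above that limit, from 734 to 1720 reads for hbbe2 up to 46619 to 102039 reads for hbae1. A count of 0 would have allowed up to 3 reads, or 0.109 to 0.186 CPM. Counting error was thus small for these genes, and the spread between pools set the precision. The SD of log2 values within groups was 0.16 to 0.20 for the 6 genes, against a median of 0.15 over all genes tested and 0.12 over those with a mean of at least 100 CPM. In earlier results of these data control 4 and canagliflozin 4 stood apart from their groups towards empagliflozin, so results that rest on them are given with and without them. Both pools were picked from these same data, so leaving them out tends to widen differences from empagliflozin and gives no separate support. Transcript lengths were not used, and levels are compared between pools, not between genes.

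Neither compound changed any of the 6 genes past an adjusted p of 0.05 (limma on log2(CPM + 1), Benjamini-Hochberg over 11964 genes tested). For empagliflozin against control 0 of 6 were called, where 13.3% of all genes tested were called, and 1 of 6 had an unadjusted p under 0.05, where 32.4% of all genes did. For canagliflozin against control 0 of 6 were called beside 0% of all genes, and 0 of 6 had an unadjusted p under 0.05, beside 7.73%. For empagliflozin against canagliflozin 0 of 6 were called beside 25.5% of all genes, and 1 of 6 had an unadjusted p under 0.05, beside 39.2%. edgeR also called 0 of 6 in each comparison. DESeq2 called 0 of 6 against control for either compound and 1 of 6, hbae3, between the compounds. The 18 intervals of the 6 genes in the 3 comparisons reached from -0.48 to 0.48 on the log2 scale, so the largest fold that any of them contains is 1.39. The gene closest to a call was hbae3, an alpha chain, lower in empagliflozin.

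The alpha chain hbae3 stood at 1697, 1890, 1703 and 1370 CPM in control pools 1 to 4, at 1497, 1471, 1449 and 1209 CPM in empagliflozin, and at 1647, 1503, 1821 and 1746 CPM in canagliflozin. Control 4 lay below 3 of the 4 empagliflozin pools while the other controls lay above all of them, and every canagliflozin pool lay above every empagliflozin pool. Means were 1665 ± 216 CPM in control, 1407 ± 133 in empagliflozin and 1679 ± 138 in canagliflozin (SD, n = 4 each). The difference of empagliflozin from control was -0.24 on the log2 scale (95% interval -0.46 to -0.02), or -15.2%, with a limma adjusted p of 0.127. From canagliflozin it was -0.26 (-0.48 to -0.04), or -16.3%, with a limma adjusted p of 0.0794. Canagliflozin differed from control by 0.02 (-0.20 to 0.24, limma adjusted p = 0.982), and this sign turned under quantile normalization (-0.04) and without control 4 (-0.07), canagliflozin 3 (-0.02) or canagliflozin 4 (-0.00). In group order, control and canagliflozin lay within their spread of each other, with empagliflozin below both. The authors' deposited table gave false discovery rates of 0.137 and 0.123 for empagliflozin against control and against canagliflozin.

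Whether hbae3 was called against control turned on control 4. Without that pool the difference of empagliflozin from control was -0.33 with a limma adjusted p of 0.0203. The difference from canagliflozin holds no control pool and stayed at -0.26. Its limma adjusted p was then 0.0379, since the spread shared by all groups and the adjustment over all genes changed. With control 4 and canagliflozin 4 both left out, limma adjusted p values were 0.00945 against control and 0.0417 against canagliflozin. That exclusion also raised the calls over all genes, from 1589 to 4246 against control and from 3049 to 4886 against canagliflozin. Leaving out empagliflozin 4, the lowest pool of its group, shrank the differences to -0.17 from control and -0.19 from canagliflozin. These were the smallest with 1 library left out. Under all alternatives the adjusted p values of hbae3 ran from 0.00945 to 0.317 against control and from 0.0379 to 0.269 against canagliflozin. hbae3 was the one gene of the 6 whose groups did not overlap between the compounds, where 25.6% of all genes did not overlap; against control 0 of 6 were free of overlap for empagliflozin, beside 19.1% of all genes, and 0 of 6 for canagliflozin, beside 4.49%.

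The other alpha row, hbae1, was at 3429, 3701, 2966 and 2950 CPM in the controls, at 3706, 3743, 3312 and 3169 CPM in empagliflozin, and at 3058, 2895, 3224 and 4136 CPM in canagliflozin. The groups overlapped throughout, and canagliflozin 4 was the highest pool of the 12. Means were 3262 ± 368 CPM in control, 3482 ± 286 in empagliflozin and 3328 ± 555 in canagliflozin (SD, n = 4 each). The log2 difference was 0.10 for empagliflozin against control (-0.15 to 0.35, limma adjusted p = 0.597), 0.02 for canagliflozin against control (limma adjusted p = 0.980) and 0.08 between the compounds (limma adjusted p = 0.661). The order of the 3 group means was within their spread. The canagliflozin value turned sign under quantile normalization (-0.08) and when control 3, control 4 or canagliflozin 4 was left out (-0.02, -0.02 and -0.09). The row carries no Entrez ID, and hbae1 is a RefSeq synonym of hbae1.1, which has the near-identical copies hbae1.2 and hbae1.3. How reads of such copies were assigned is not given in the sources used here, so the level of hbae1 may hold or miss reads of its copies.

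**Figure D1:**
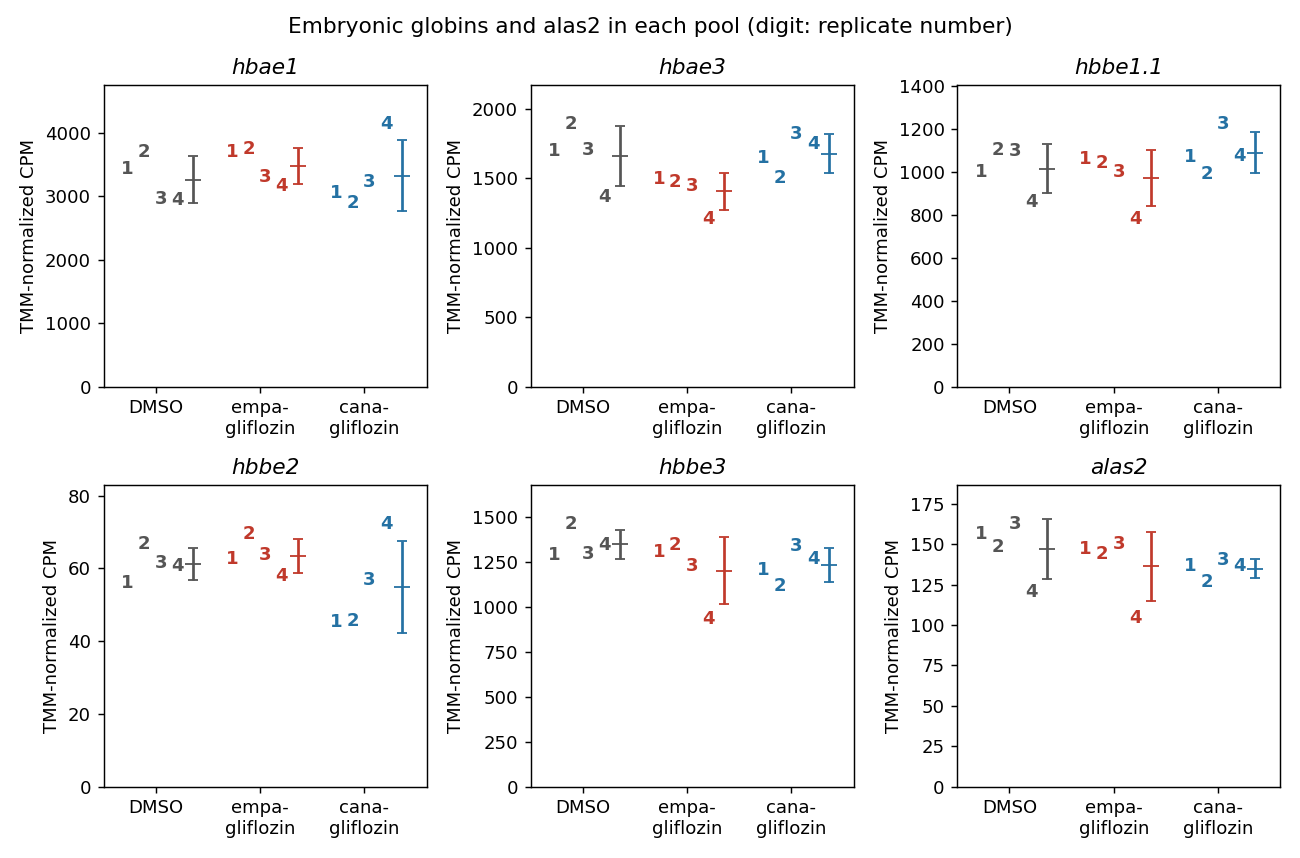
TMM-normalized CPM (linear axis from 0) of the 5 embryonic globins and alas2 in each pool, by group; digits are replicate numbers, and bars give mean ± SD over 4 pools. For hbae3 the empagliflozin pools lie at 1209 to 1497 CPM, below all canagliflozin pools, while for the other 5 genes the groups overlap.

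Among the beta chains, hbbe1.1 stood at 1000, 1103, 1098 and 859 CPM in the controls, at 1062, 1042, 1001 and 780 CPM in empagliflozin, and at 1068, 993, 1222 and 1073 CPM in canagliflozin. The fourth pools of control and empagliflozin were the lowest of the 12, and the groups overlapped. Group means were 1015 ± 114, 971 ± 130 and 1089 ± 95.8 CPM (SD, n = 4 each), with log2 differences of -0.07 for empagliflozin against control (limma adjusted p = 0.705), 0.10 for canagliflozin against control (0.847) and -0.17 between the compounds (0.253). The difference of empagliflozin from control was 0.04 without empagliflozin 4, which turns its sign.

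The beta chain hbbe3 was at 1289, 1462, 1297 and 1346 CPM in the controls, at 1306, 1344, 1226 and 931 CPM in empagliflozin, and at 1208, 1118, 1341 and 1270 CPM in canagliflozin. Empagliflozin 4 was well below every other pool, and the remaining 11 overlapped between groups. Means were 1349 ± 79.6 CPM in control, 1202 ± 187 in empagliflozin and 1234 ± 94.7 in canagliflozin (SD, n = 4 each). The log2 difference from control was -0.18 for empagliflozin (-0.40 to 0.04, limma adjusted p = 0.248) and -0.13 for canagliflozin (-0.35 to 0.09, limma adjusted p = 0.793). Between the compounds it was -0.05 (limma adjusted p = 0.754), and 0.07 without empagliflozin 4 or under quantile normalization.

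The row of the beta chain hbbe2 held fewer reads, with 55.9, 66.8, 61.4 and 60.7 CPM in the controls, 62.5, 69.5, 63.7 and 57.9 CPM in empagliflozin, and 45.3, 45.6, 56.8 and 72.2 CPM in canagliflozin. Canagliflozin held both the lowest and the highest pools, with canagliflozin 4 on top. Means were 61.2 ± 4.45, 63.4 ± 4.80 and 55.0 ± 12.7 CPM (SD, n = 4 each). The log2 difference was 0.05 for empagliflozin against control (limma adjusted p = 0.807), -0.17 for canagliflozin against control (limma adjusted p = 0.752) and 0.23 between the compounds (-0.03 to 0.48, limma adjusted p = 0.176). Canagliflozin 4 made the last value smaller: without that pool hbbe2 was 0.36 higher in empagliflozin than in canagliflozin, with a limma adjusted p of 0.00601.

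**Figure D2:**
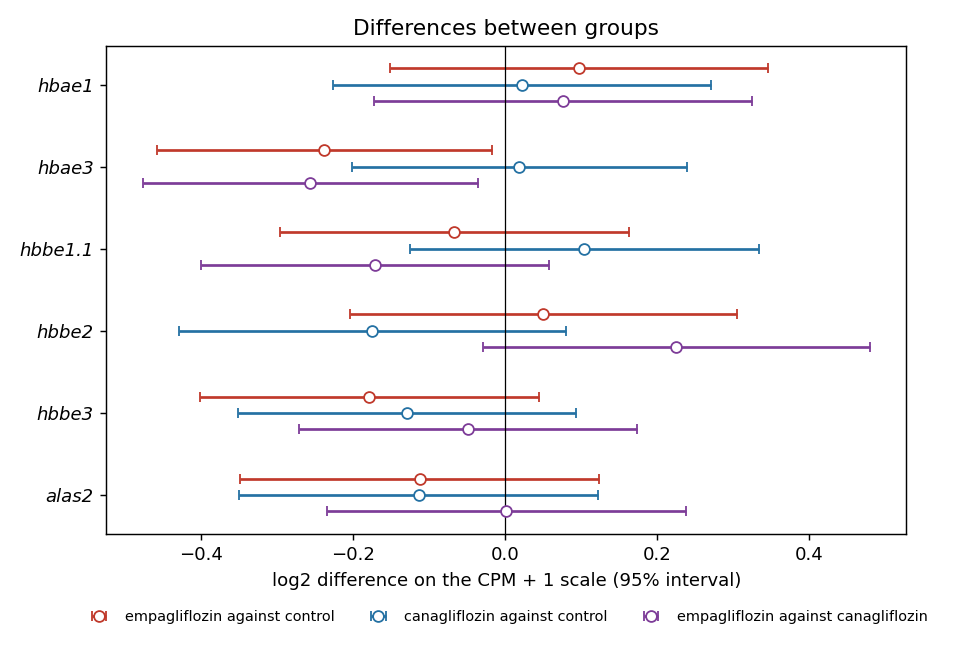
Log2 difference on the CPM + 1 scale (x axis) of each gene in the 3 comparisons, as limma estimates with 95% intervals from all 12 libraries. The intervals of hbae3 for empagliflozin against control and against canagliflozin end at -0.02 and -0.04 without reaching 0, and the other 16 hold 0. All markers are drawn open whatever the adjusted p, and no difference passed the adjusted threshold.

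The alas2 transcript stood at 157, 148, 163 and 120 CPM in the controls, at 147, 144, 150 and 104 CPM in empagliflozin, and at 136, 126, 140 and 136 CPM in canagliflozin. The 3 groups overlapped, and the fourth pools of control and empagliflozin were the lowest of the 12. Means were 147 ± 18.7 CPM in control, 136 ± 21.6 in empagliflozin and 135 ± 5.97 in canagliflozin (SD, n = 4 each). Each compound differed from control by -0.11 on the log2 scale (both -0.35 to 0.12), with limma adjusted p values of 0.511 for empagliflozin and 0.839 for canagliflozin. The compounds differed from each other by 0.00 (limma adjusted p = 0.994), with either sign as single pools were left out. Without empagliflozin 4 the difference of that group from control was 0.01, so its sign rests on a single pool. Both compounds are set against the same 4 controls, so their like values for alas2 are not separate observations.

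Reads of near-identical copies may be divided between rows. Some copies, such as hbbe1.3, hbae1.2 and hbae1.3, have no row under their RefSeq symbol, so the naming rule did not reach them. The 5 rows were also summed, which does not settle how such reads were divided. Their sum stood at 7470, 8223, 7126 and 6586 CPM in the controls, at 7633, 7670, 7053 and 6148 CPM in empagliflozin, and at 7026, 6554, 7664 and 8297 CPM in canagliflozin. The fourth pool was the lowest of control and of empagliflozin and the highest of canagliflozin. Group means were 7351 ± 686, 7126 ± 711 and 7385 ± 759 CPM (SD, n = 4 each). The log2 differences were -0.05 (SE 0.10) for empagliflozin against control, 0.01 (SE 0.10) for canagliflozin against control and -0.05 (SE 0.11) between the compounds, each smaller than the within-group SD of 0.14. The 5 rows accounted for 0.629% to 0.819% of a pool's reads over the 14134 genes, and every pair of groups overlapped. In whole embryos fewer red cells and less globin RNA per red cell cannot be told apart.

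The alpha rows summed to 4926 ± 552 CPM in control, 4889 ± 400 in empagliflozin and 5007 ± 640 in canagliflozin (SD, n = 4 each). The beta rows summed to 2425 ± 158, 2237 ± 320 and 2378 ± 193 CPM. The ratio of alpha to beta reads was 2.03 ± 0.147, 2.20 ± 0.183 and 2.11 ± 0.224 in the same order, and the groups overlapped. RefSeq places hbbe2 and hbbe3 beside hbae4 and hbae5 in one cluster, and hbae1.1, hbae3 and hbbe1.1 in another cluster on a different chromosome. The first pair summed to 1410 ± 83.6, 1265 ± 191 and 1289 ± 103 CPM in control, empagliflozin and canagliflozin, and the rows of the other cluster to 5942 ± 636, 5861 ± 524 and 6096 ± 675 CPM. For neither cluster did the sums separate the groups. The beta sum, the ratio and the cluster sums hold only the 5 rows of the naming rule. A row matched to hbbe1.3, described below, lies outside them at 1784 ± 282 CPM in control. That is above any beta row summed here, so the ratio is not that of all embryonic chains.

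Within the alpha pair the balance differed more than the sum. The ratio of hbae3 to hbae1 was 0.495, 0.511, 0.574 and 0.464 in the controls, 0.404, 0.393, 0.438 and 0.382 in empagliflozin, and 0.539, 0.519, 0.565 and 0.422 in canagliflozin. All empagliflozin pools lay below all controls, control 4 included, while canagliflozin 4 lay within the range of empagliflozin. Mean ratios were 0.511 ± 0.0462, 0.404 ± 0.0242 and 0.511 ± 0.0623 (SD, n = 4 each), a log2 difference of -0.34 (SE 0.08) for empagliflozin against control. hbae3 made up 22.6% ± 1.30 of summed embryonic globin in control, 19.8% ± 0.575 in empagliflozin and 22.8% ± 1.22 in canagliflozin. The empagliflozin share was below every pool of the other groups. hbae1 made up 44.3%, 49.0% and 44.9%, with every empagliflozin pool above every control. Canagliflozin 4, at 49.8%, lay within the empagliflozin range of 47.0% to 51.6%. Shares of the same sum depend on each other, and no value over all genes was at hand for their lack of overlap.

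The ratio of hbbe3 to hbae1 had the same order against control, at 0.416 ± 0.0371 in control, 0.344 ± 0.0342 in empagliflozin and 0.376 ± 0.0476 in canagliflozin, and its empagliflozin and control pools did not overlap. Of the 5 ratios of a member to hbae1, 2 were free of overlap between empagliflozin and control, where 12.4% of all genes were when set against hbae1 in the same way. For canagliflozin against control 0 of 5 were (0.769% of all genes), and between the compounds 0 of 5 (10.8%). Some ratios without hbae1 were also free of overlap, with no share over all genes at hand. Against control, empagliflozin had a higher hbbe2 to hbbe3 (0.0534 and 0.0454) and a lower hbae3 to hbbe1.1 (1.45 and 1.64). Against canagliflozin it had a higher hbbe3 to hbbe1.1 (1.23 and 1.13). These ratios overlapped in their other comparisons. The ratios were looked at after the levels and carry no test; they show unequal change of the rows and not which row changed.

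**Figure D3:**
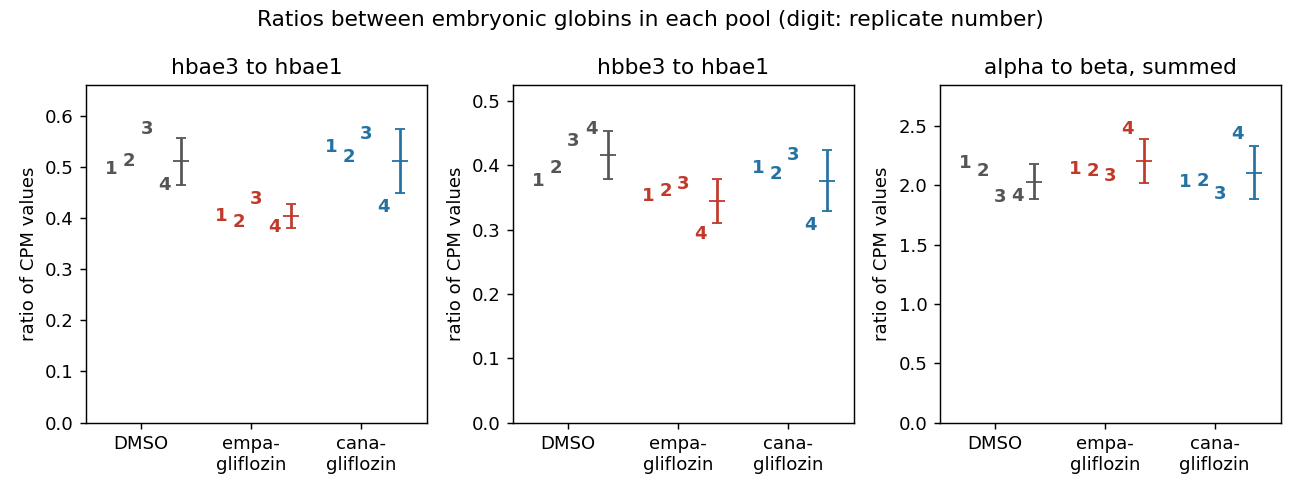
Ratios of embryonic globin rows in each pool (y axis, CPM divided by CPM, no unit), by group, with digits for replicate numbers and bars for mean ± SD over 4 pools. The ratio of hbae3 to hbae1 is 0.382 to 0.438 in empagliflozin, below all controls, and canagliflozin 4 lies at 0.422.

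Some pools were the lowest or the highest of their group for most of the 6 genes. Empagliflozin 4 was the lowest pool of its group for 6 of 6 genes, control 4 for 4 of 6 and canagliflozin 2 for 5 of 6, and control 2 was the highest of its group for 5 of 6. Set against the mean of the other 3 empagliflozin pools, empagliflozin 4 differed by -0.49 on the log2 scale for alas2, by -0.47 for hbbe3, by -0.41 for hbbe1.1 and by -0.28 for hbae3, while the median over all genes tested differed by -0.00. Control 4 differed from the other controls by -0.37 for alas2, -0.36 for hbae3 and -0.31 for hbbe1.1, but by -0.01 for hbbe2 and -0.00 for hbbe3. Canagliflozin 4 differed from its group by 0.55 for hbbe2 and 0.44 for hbae1 and by -0.02 to 0.08 for the other 4 genes. hbbe2 and hbae1 thus departed together in that pool.

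Over the 12 pools Pearson's r between pairs of the 6 genes ran from 0.09 to 0.87 in 15 pairs, given as a description since all genes of a pool share its library. It was highest for hbae3 with hbbe1.1 (0.87), and was 0.75 for alas2 with hbbe1.1 and 0.73 for hbae1 with hbbe2. The alpha pair hbae1 and hbae3 had an r of 0.31. With group means removed the 15 values ran from 0.25 to 0.93, and that of the alpha pair was 0.65.

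**Figure D4:**
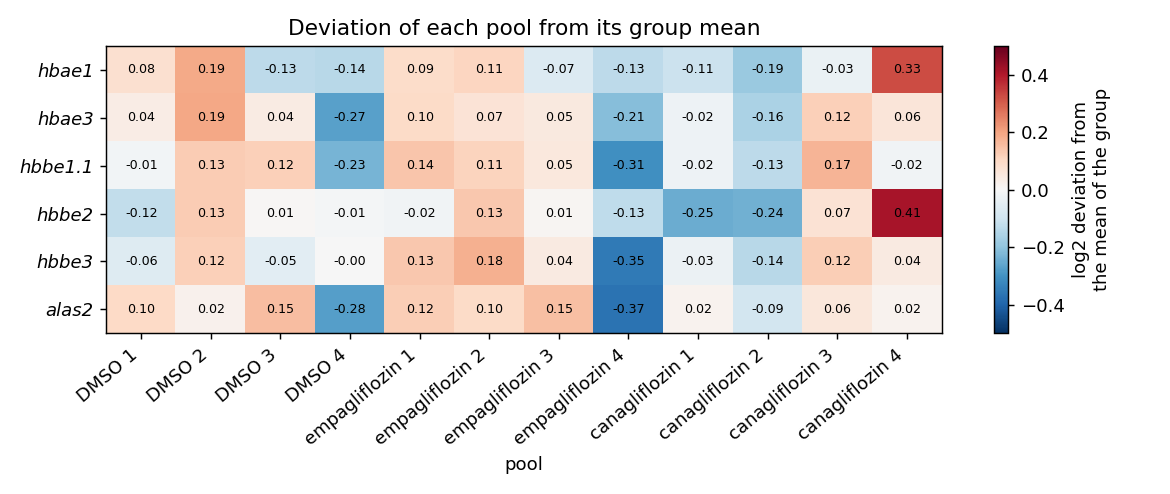
Log2 deviation of each pool (columns) from the mean of its own group for each gene (rows), with colour and printed value on the same scale. Empagliflozin 4 is negative for all 6 genes, and canagliflozin 4 is most positive for hbbe2 and hbae1.

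Among genes outside the set, those whose levels ran most like summed embryonic globin over the 12 pools were ak8, an adenylate kinase (r = 0.89), cahz, the red cell carbonic anhydrase of zebrafish (0.87), snap25b, a synaptic vesicle fusion protein (0.82), and cox6b1, a cytochrome c oxidase subunit (0.82). Next came si:ch211-5k11.12 (0.82), ccdc32 (0.81), cpvl, ela2, the ferritin heavy chain fth1a (0.78) and crym. Without empagliflozin 4 and canagliflozin 4, the pools farthest from the median, r was 0.79 for ak8, 0.83 for cahz and 0.48 for fth1a. For alas2 the list was led by blvrb, a biliverdin reductase (r = 0.88, and 0.81 without empagliflozin 4 and control 4, the pools farthest from its median), followed by zgc:174623, fuca1.1, hnrnpm and ucp3. These values describe likeness in 12 libraries and were chosen as the highest of the whole table.

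Other globin rows lay outside the naming rule. By Entrez ID or by a synonym in RefSeq, si:ch211-5k11.12 is hbbe1.3 and zgc:163057 is hbae4; these matches were made after the values had been seen. The hbbe1.3 row stood at 1784 ± 282 CPM in control, 1615 ± 122 in empagliflozin and 1817 ± 105 in canagliflozin (SD, n = 4 each), and no comparison passed (limma adjusted p 0.242 to 0.957). The hbae4 row stood at 8.49 ± 0.493, 6.51 ± 1.31 and 9.15 ± 1.34 CPM. Its difference of empagliflozin from canagliflozin was -0.44 on the log2 scale (-0.71 to -0.17, limma adjusted p = 0.0211) and that from control -0.35 (-0.63 to -0.08, limma adjusted p = 0.0771), with no overlap between empagliflozin and control. The former was no longer past the threshold without empagliflozin 1, empagliflozin 4, canagliflozin 1 or canagliflozin 3, with adjusted p from 0.0532 to 0.0667. Adding both rows gave 9144 ± 960, 8748 ± 831 and 9211 ± 853 CPM and log2 differences of -0.06, 0.01 and -0.07, all with overlap. RefSeq lists 11 embryonic globin genes, and hbae5, hbbe1.2, hbae1.2 and hbae1.3 were not analysed here.

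The embryonic label was checked against adult chains, which sat at the limit of counting. The adult alpha chain hbaa1 had 1 to 9 reads per library, and zgc:92880, which is hbba2 by synonym, had 2 to 13. The rows ba1l and si:ch211-5k11.6 (hbaa2 by synonym) had 0 to 4 reads. None reached the mean of 1 CPM required for a test. Other members of the globin family are not red cell chains: cygb1, a cytoglobin, was at 61.8 ± 23.2 CPM in control, 45.7 ± 3.09 in empagliflozin and 71.1 ± 12.9 in canagliflozin, and was called between the compounds (log2 difference -0.61, limma adjusted p = 0.0362). That call ended under 9 of 25 alternatives.

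Some other genes of heme synthesis were called in empagliflozin, and the difference between them and alas2 was not tested. Of the 9 other enzymes of the pathway, 4 fell and 0 rose in empagliflozin against control, where 6.41% of all genes fell; all 9 had lower means, and their median log2 difference was -0.34 beside -0.00 over all genes. Against canagliflozin 5 fell and 0 rose, with a median of -0.31, where 13.1% of all genes fell. For canagliflozin against control 0 of 9 were called, beside 0% of all genes, and the median was 0.06. The summed level of the 9 was 450 to 531 CPM in control, 329 to 407 in empagliflozin and 472 to 531 in canagliflozin, so empagliflozin lay below both other groups.

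alad encodes the enzyme that joins the product of alas2 into porphobilinogen. It was at 52.5, 55.3, 51.3 and 43.1 CPM in the controls, at 37.1, 37.8, 38.7 and 34.9 CPM in empagliflozin, and at 61.9, 57.8, 62.3 and 46.1 CPM in canagliflozin. Every empagliflozin pool was below every other pool. The log2 difference of empagliflozin was -0.43 from control (-0.64 to -0.22, limma adjusted p = 0.0164) and -0.60 from canagliflozin (limma adjusted p = 0.000920). hmbsa, one of a pair of genes for the next enzyme, hydroxymethylbilane synthase, was at 53.0, 53.2, 55.6 and 50.8 CPM in the controls, at 41.1, 39.2, 38.5 and 36.9 CPM in empagliflozin, and at 59.2, 57.7, 60.3 and 48.4 CPM in canagliflozin. Its pools also did not overlap, with a difference of -0.44 from control (-0.60 to -0.28, limma adjusted p = 0.00550) and -0.52 from canagliflozin (limma adjusted p = 0.000473).

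The partner gene hmbsb fell from 78.9 ± 2.78 CPM in control to 62.3 ± 7.80 in empagliflozin (-0.34, limma adjusted p = 0.0225), and stood at 79.9 ± 5.81 in canagliflozin (SD, n = 4 each). urod, the uroporphyrinogen decarboxylase, fell from 118 ± 17.8 to 88.0 ± 14.2 CPM (-0.42, limma adjusted p = 0.0300), with 127 ± 3.77 in canagliflozin. alas1, the form of the first enzyme used outside red cells, was -0.15 from control (limma adjusted p = 0.154) and fell against canagliflozin (-0.28, limma adjusted p = 0.00888). fech, which inserts iron into the ring, was -0.37 from control with a limma adjusted p of 0.119, and cpox was -0.28 with 0.109. Of the 4 calls against control, 1 to 4 held in fits with 1 library left out. Leaving out control 2 or control 3 left 1, empagliflozin 4 left 2, and empagliflozin 1, 2 or 3 left 3. Without control 4 and canagliflozin 4 together 4 were called. Over all genes that exclusion gave 4246 calls, beside 1589 in the full fit and 269 to 3033 with 1 library left out. Against the other controls the median of the list was -0.08 in control 4 and -0.36 in empagliflozin.

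**Figure D5:**
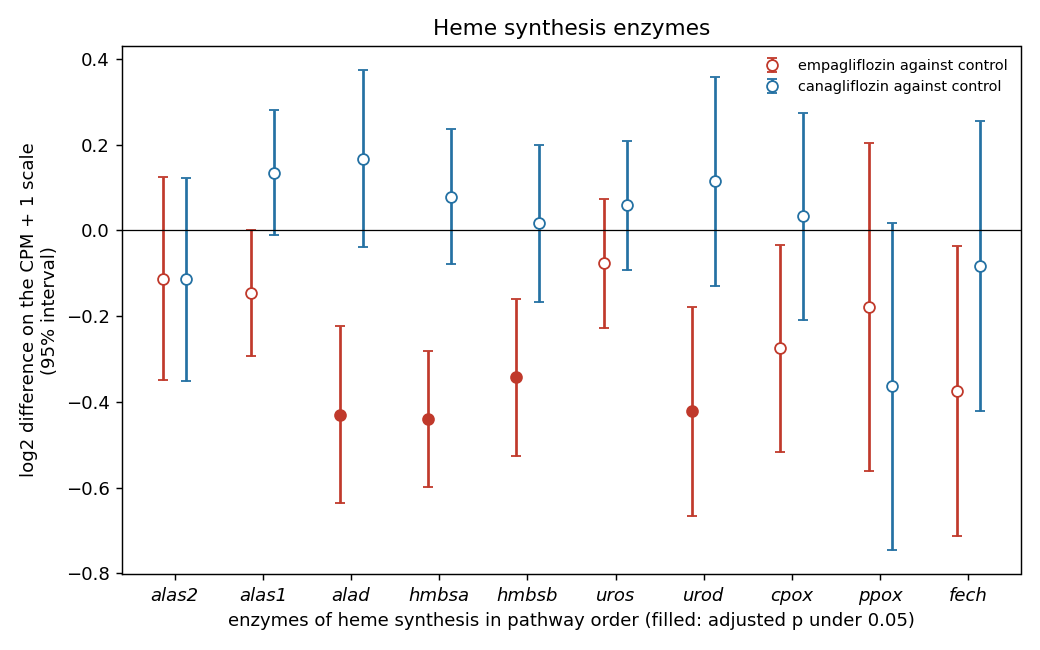
Log2 difference on the CPM + 1 scale (y axis) of the 10 genes for heme synthesis enzymes in pathway order, alas2 first, for empagliflozin and canagliflozin against control, as limma estimates with 95% intervals; filled points have an adjusted p under 0.05. alad, hmbsa, hmbsb and urod are filled for empagliflozin, at -0.34 to -0.44, while alas2 lies at -0.11 for both compounds.

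Iron has to reach mitochondria for heme and iron-sulfur clusters. Of 15 tested genes for iron supply and cluster assembly, 5 fell and 0 rose in empagliflozin against control (median -0.19), where 6.41% of all genes fell. glrx5, a mitochondrial glutaredoxin of cluster assembly whose loss makes zebrafish anemic, fell from 42.5 ± 5.93 to 25.4 ± 0.994 CPM (-0.71, limma adjusted p = 0.00435), with 42.7 ± 6.69 in canagliflozin (SD, n = 4 each). isca1, a cluster assembly factor, fell by 0.64 on the log2 scale (limma adjusted p = 0.0124). tmem14ca, of the family of a mitochondrial porphyrin transporter known from mouse, fell by 0.42 (0.0290). slc11a2, the iron importer DMT1, fell by 0.24 (0.0344). The mitochondrial glycine carrier slc25a38a, named because it is the remaining call, fell by 0.71 (0.0435) at a level of 1.26 to 5.94 CPM over the 12 pools. Leaving out control 2, control 3, empagliflozin 3 or empagliflozin 4 gave 2 calls, and leaving out control 1, empagliflozin 1 or empagliflozin 2 gave 3. Leaving out control 4 and canagliflozin 4 together gave 7 lower and 1 higher. Over all genes, calls numbered 4246 in that last fit, 1589 in the full fit and 269 to 3033 with 1 library left out. The median of the list was -0.16 in control 4 and -0.23 in empagliflozin against the other controls. Against canagliflozin 5 fell and 1, the iron regulatory protein gene aco1, rose (0.27, limma adjusted p = 0.0379), where 13.1% of all genes fell and 12.4% rose. For canagliflozin against control 0 of 15 were called, beside 0% of all genes.

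Heme breakdown and ferritin genes gave 0 calls of 6 in each comparison, beside 13.3% of all genes for empagliflozin against control, 0% for canagliflozin against control and 25.5% between the compounds. fth1a, the ferritin heavy chain, differed by -0.05 from control in empagliflozin, blvrb by -0.16 and hmox1a, a heme oxygenase, by -0.02 (limma adjusted p 0.211 to 0.901).

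Of 12 tested erythroid transcription factors, 2 rose and 0 fell in empagliflozin against control (median 0.22), where 6.87% of all genes rose. They were trim33, a chromatin factor needed for zebrafish red cells, from 92.2 ± 14.0 to 124 ± 4.54 CPM (0.44, limma adjusted p = 0.0267), and zfpm1, the GATA1 cofactor FOG1, from 19.0 ± 1.81 to 23.5 ± 0.916 CPM (0.30, limma adjusted p = 0.0316). Both calls ended when control 1, 2 or 3 or any empagliflozin pool was left out. Without control 4 and canagliflozin 4 together 8 of 12 were called higher. That exclusion raised the calls over all genes, in either direction, from 1589 to 4246. Control 4 lay at a median of 0.29 from the other controls, close to the 0.33 of the empagliflozin group. The globin activators gata1a (0.38, limma adjusted p = 0.157) and klf1 (0.24, limma adjusted p = 0.219) were not called. Means were higher than in control for 9 of the 12 factors. They were lower, without a call, for nfe2 (-0.36, limma adjusted p = 0.0604), lmo2 (-0.25, 0.0825) and tal1 (-0.12, 0.259), so the list did not move as one. The pools are whole embryos, and the cells that the reads of these factors came from were not tested. Against canagliflozin 5 rose, trim33, zfpm1, ldb1a, gfi1b and klf3, and 1 fell, nfe2 (-0.38, limma adjusted p = 0.0306), where 12.4% of all genes rose and 13.1% fell. With 1 library left out 3 to 8 rose, the 8 without canagliflozin 4, and the nfe2 call ended under 8 alternatives. Calls over all genes in that comparison ran from 1931 to 4233 with 1 library left out, the 4233 without canagliflozin 4.

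Of 14 tested red cell membrane, receptor and enzyme genes, 0 were called for either compound against control (median of control 4 against the other controls -0.25). The shares called over all genes were 13.3% for empagliflozin and 0% for canagliflozin. Without control 4 3 fell in empagliflozin against control, without canagliflozin 4 2 fell, and without empagliflozin 4 1 rose. Over all genes those fits gave 3033, 2708 and 770 calls in the same order. The anion exchanger slc4a1a, which defines red cells, was at 254 ± 34.4 CPM in control, 223 ± 24.7 in empagliflozin and 241 ± 21.6 in canagliflozin, and cahz at 133 ± 15.4, 122 ± 16.6 and 131 ± 9.03 CPM (SD, n = 4 each). Their differences for empagliflozin against control were -0.19 (limma adjusted p = 0.222) and -0.12 (limma adjusted p = 0.428). Between the compounds 2 were higher in empagliflozin, the membrane skeleton genes epb41b (0.65, limma adjusted p = 0.00303) and ank1a (0.41, limma adjusted p = 0.00494). The peroxiredoxin prdx2 (-0.45, limma adjusted p = 0.00539) and tspo (-0.30, limma adjusted p = 0.0111) were lower. These counts of 2 of 14 in each direction stand beside 12.4% of all genes higher and 13.1% lower. Against control, epb41b differed by 0.25 in empagliflozin (limma adjusted p = 0.195) and -0.40 in canagliflozin (0.541), and ank1a by 0.06 (0.704) and -0.35 (0.487).

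Some markers of neighbouring cells and tissues were called as well. Of 11 tested myeloid markers, 3 fell and 0 rose in empagliflozin against control, where 6.41% of all genes fell, namely lyz (-0.48, limma adjusted p = 0.0171), coro1a (-0.34, 0.0214) and lcp1 (-0.35, 0.0496). The lcp1 call ended under 16 alternatives, that of coro1a under 5 and that of lyz under 3. With control 1, 2 or 3 left out 0 fell, with empagliflozin 1 or 2 left out 1 fell, and with control 4 left out 4 fell. Over all genes these fits gave 269 to 3033 calls, the 3033 without control 4. The summed level of the 11 markers was 252 to 286 CPM in control, 235 to 250 in empagliflozin and 250 to 286 in canagliflozin. No tested marker was at 0 in any library. Against the other controls the median of the list was -0.23 in control 4 and -0.25 in empagliflozin. Of 14 endothelial markers 0 were called against control for either compound, beside 13.3% and 0% of all genes, and 1, kdr, fell in empagliflozin against canagliflozin, beside 13.1%, a call that ended under 11 alternatives. Of 6 markers of other embryonic tissues, the neural genes elavl3 and pax2a rose in empagliflozin against control (0.37 and 0.34, limma adjusted p 0.00467 and 0.0246), where 6.87% of all genes rose. The heart gene myl7 and the transferrin gene tfa fell (-0.33 and -0.69, limma adjusted p 0.0143 and 0.00556), where 6.41% fell. tfa was not counted among the iron supply genes above, and the tissue its reads came from was not tested. Leaving out control 3 ended the calls of pax2a and myl7, and that of pax2a also ended without control 1, control 2, empagliflozin 1, empagliflozin 2 or empagliflozin 4. The part of cell composition in the heme and iron results was not tested.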

How the data were processed

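Per the labels' protocols, stranded mRNA libraries of 12 pools of whole embryos were sequenced as 50 bp pairs (NovaSeq). The authors used FastQC, the danRer10 build and R 3.6.1, per the submitters' processing notes, and the sources used here give neither aligner nor counter. The deposited signal per gene is CPM scaled by TMM (factors 0.939 to 1.03, taken against the reads summed over the 14134 genes). 100% of values were whole reads within 0.001 after multiplying back. The authors' comparison tables hold p-values with false discovery rates, beside log2 differences; their deposited columns of another kind (other) were not used.

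Genes with a mean of at least 1 CPM, 11964 of 14134, were fitted with limma 3.58.1 (R 4.3.3, variance trend) on log2(CPM + 1), with 1 mean per group over 12 libraries, two-sided, Benjamini-Hochberg adjusted over all of them at 0.05. Adding 1 CPM understates the change of genes with few reads. Intervals are 95% intervals of that fit, and floors cover counting error only. On the recovered reads edgeR 4.0.16 called 1484 genes for empagliflozin against control (limma 1589), 0 for canagliflozin against control (limma 0) and 2990 between the compounds (limma 3049), and DESeq2 1.42.0 was a further alternative. Sums and ratios are described without a test. No libraries of a group were copies (chi-square per degree of freedom 5.05 to 39.3). Names and gene order came from RefSeq (GRCz12tu), without coordinates, since the builds differ.

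The members and gene lists were chosen with earlier results of these data known. Named genes were all members; from each list, up to 4 genes past the threshold with the smallest p per comparison, or up to 3 of the highest mean where a list had none; and the 10 and 5 genes most like summed globin and alas2. Genes named beyond that were chosen after their values were seen. Other settings tried were a pseudocount of 0.1 or 5, a minimum of 5 CPM or none, median centring, quantile normalization, totals without embryonic globins, the replicate block, the compared groups only, no variance trend, and libraries left out. The fits were tested on simulated data.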

Additional observations from a re-analysis of the deposited data

Results flagged for a closer look

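Of 27 sets of 4 pools examined for a pool far from the rest, 3 held one, and chance alone flags about 1 in 20 separate sets. The 27 sets share libraries and genes, so their count cannot be set against that rate. All 3 flags concern empagliflozin 4. Its alas2 level of 104 CPM was below the 144 to 150 CPM of the other empagliflozin pools, with a gap of 0.876 of the group's whole range. Its hbae3 level of 1209 CPM was below 1449 to 1497 CPM, with a gap of 0.833 of the range. Its ratio of alpha to beta globin reads, 2.48, was above 2.08 to 2.14, with a gap of 0.842 of the range.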

How the results depend on the processing

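The number of the 6 genes called was 0 in each comparison under every alternative except those named here. Against control, empagliflozin gave 1 call (hbae3) without control 4 and canagliflozin 4 together, and 0 to 1 with 1 library left out. Between the compounds DESeq2 gave 1 (hbae3, adjusted p = 0.0453), leaving out 1 library 0 to 1, and leaving out control 4 and canagliflozin 4 together 2 (hbae3 and hbbe2). For canagliflozin against control the range with 1 library left out was 0 to 0. The cause of these changes was not tested.

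Signs that turned belonged to small differences. Under quantile normalization hbae1 and hbae3 were -0.084 and -0.035 for canagliflozin against control, and alas2 and hbbe3 were -0.030 and 0.069 between the compounds. Without control 4 and canagliflozin 4 together hbae1 and hbae3 were -0.13 and -0.092 for canagliflozin against control. With 1 library left out, the ranges were -0.20 to 0.011 for alas2 and -0.14 to 0.035 for hbbe1.1 in empagliflozin against control; -0.087 to 0.085 for hbae1 and -0.072 to 0.082 for hbae3 in canagliflozin against control; and -0.049 to 0.12 for alas2 and -0.11 to 0.069 for hbbe3 between the compounds. The summed globin differences ran from -0.10 to 0.02, -0.05 to 0.06 and -0.11 to 0.02 with 1 library left out, in the order of empagliflozin and canagliflozin against control and then the compounds against each other. They ran from -0.10 to -0.05, -0.10 to 0.01 and -0.07 to 0.01 under the other alternatives.

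Over the whole table, empagliflozin against control had 1589 calls, 269 to 3033 with 1 library left out and 4246 without control 4 and canagliflozin 4 together. Canagliflozin against control had 0, with 925 at an unadjusted p under 0.05, 24 by DESeq2, 0 by edgeR and 7 without control 3. Between the compounds there were 3049, with 1931 to 4233 and 4886.

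Deviations of same-numbered pools had an r of -0.12 to 0.59 over 12 pairs, highest for canagliflozin 4 with control 4. The labels do not say whether the numbers pair the pools, and these values cannot decide it. With the replicate number as a block 0 of 6 genes were called in each comparison. The block gave 2269, 0 and 3456 calls over all genes, beside 1589, 0 and 3049 without it. In the same order 2, 2 and 1 of 8 libraries correlated best with their own number.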
